A study of Mus musculus with 8 samples.

Results

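The regions described here were the Cxcl10-rich dense bins of mouse GL261 gliomas, squares of 360 pixels that held at least 100 molecules of Mki67 plus Birc5 and at least 400 molecules of Cxcl10. GL261 is a mouse glioma cell line. The bins were selected on the molecule counts of those 3 genes, so the counts of Cxcl10, Mki67 and Birc5 describe the choice and were not tested. The 4 sections used held 1171 such bins among 3596 dense bins and 8958 tissue bins, and the remaining 2425 dense bins of the same sections were what they were set against. All mice had received GL261 cells in the brain and then 4 intracranial treatments, and were taken on day 21. The bins came from 2 groups, anti-PD1 (an antibody against the T cell checkpoint receptor PD-1), with 2 sections, and PBS, the buffer control, with 2 sections. The measurement was Resolve single-molecule fluorescence in situ hybridization of 100 genes, which gives the position of each detected RNA molecule. The labels give no strain or age and do not tie the sections to separate animals, so the tests below rest on the spread between sections alone.

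CXCL10 is a chemokine that many cell types make after interferon-gamma or type I interferon signalling through interferon regulatory factors among others, and NF-kB can add to its induction. With CXCL9 it binds CXCR3, a receptor on activated T cells and NK cells, and attracts those cells. Interferon-gamma also induces PD-L1, the product of Cd274, which signals through PD-1 and restrains T cells. Cxcr3, Cxcl11 and Irf1 of this pathway were not analysed here.

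The control regions of the chemokine genes are shown because interferon and NF-kB act on Cxcl10 through short motifs before its start. The Cxcl10 promoter below covers the 250 bases before the start in RefSeq's GRCm38.p6 table (chr5:92348890-92349139, minus strand), 5′ to 3′ in the direction of the gene. Capitals mark 1 match to the interferon-stimulated response element (GAAA, any 2 bases, then GAAA), 213 bases before the start. They also mark 3 matches to an NF-kB motif, 159, 104 and 103 bases before the start, the last 2 of which overlap. The NF-kB motif was GGG, A or G, any 2 bases, C or T at 2 places, then CC. Both strands were searched.
Cxcl10: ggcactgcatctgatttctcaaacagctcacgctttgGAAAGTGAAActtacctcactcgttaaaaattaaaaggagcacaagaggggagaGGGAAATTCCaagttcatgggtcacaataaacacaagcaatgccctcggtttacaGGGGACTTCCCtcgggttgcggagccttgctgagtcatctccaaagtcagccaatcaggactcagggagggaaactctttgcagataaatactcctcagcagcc
The neighbouring chemokine gene Cxcl9 lies on the same strand (chr5:92328080-92328329), and its 250 bases held no match to either motif.
Cxcl9: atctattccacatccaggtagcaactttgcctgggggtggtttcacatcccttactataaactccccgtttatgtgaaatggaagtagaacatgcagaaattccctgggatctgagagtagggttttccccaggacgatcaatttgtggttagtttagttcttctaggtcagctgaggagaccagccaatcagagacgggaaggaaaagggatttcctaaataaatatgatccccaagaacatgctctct
The gamma-activated site (GAS, TTC, any 3 bases, then GAA) was searched too and had no match in the Cxcl10 or the Cxcl9 window. Among 32851 promoters of this length, 2.98% held the interferon-stimulated response element, 7.25% held the NF-kB motif and 7.02% held the GAS motif. These matches describe letters in this window only.

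Cxcl10 was unevenly spread over the dense tissue (map of the bins). Of dense bins, 45.1% and 9.72% were Cxcl10-rich in anti-PD1 replicates 1 and 2 (373 of 827 and 106 of 1090), against 18.8% and 57.8% in PBS replicates 1 and 2 (134 of 714 and 558 of 965). The treatment groups overlapped, and the mean share was 10.9 percentage points lower with anti-PD1 (exact permutation test, two-sided, p = 0.667, where 0.333 is the smallest p that 2 against 2 sections can give). This difference took the other sign without PBS replicate 2 (8.65 points) and without anti-PD1 replicate 2 (6.81 points). Rich bins held 76.0% and 53.8% of all Cxcl10 molecules of anti-PD1 replicates 1 and 2, and 55.6% and 80.9% in PBS replicates 1 and 2. Their share of the molecules of the 97 other genes was 39.9%, 9.62%, 15.4% and 53.1% in the same order. The median rich bin held 756 and 699.5 Cxcl10 molecules in the anti-PD1 sections and 615.5 and 834.5 in the PBS sections, against 159, 45.5, 73.5 and 195 in the other dense bins. The richest bin, in PBS replicate 2, held 4493. The 4 sections from mice given CpG-STAT3ASO, alone or with anti-PD1, had 156 dense bins in all, of which 2 met the rule, and were not compared further.

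**Figure D1:**
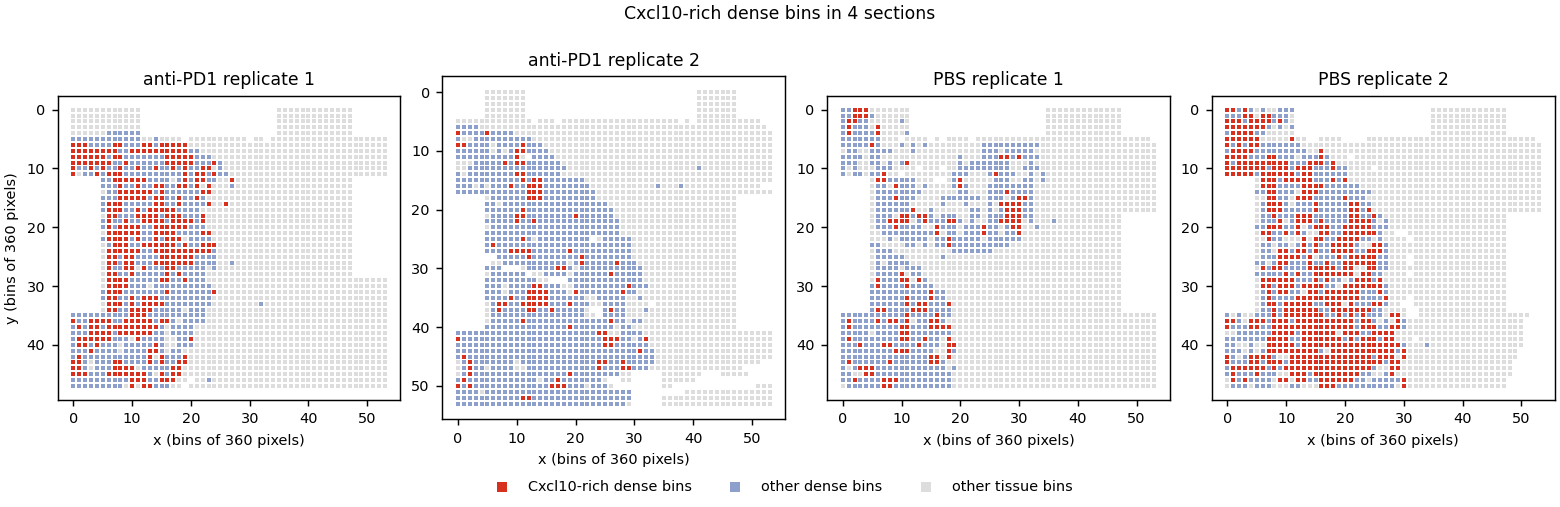
Maps of the 4 sections in bins of 360 pixels (x and y axes), with Cxcl10-rich dense bins in red, other dense bins in blue and other tissue bins in grey. Rich bins made 1 large field in PBS replicate 2, whose largest patch held 538 bins, and small patches in PBS replicate 1 and anti-PD1 replicate 2, whose largest held 19 and 18 bins.

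As a description of the values the rule used, of bins with at least 400 Cxcl10 molecules 96.4% and 100% were dense in anti-PD1 replicates 1 and 2, and 97.1% and 94.7% in PBS replicates 1 and 2. Rrm2, a ribonucleotide reductase subunit used in DNA synthesis that the rule did not use, averaged 67.8 and 75.6 molecules per rich bin in anti-PD1 replicates 1 and 2 and 37.2 and 39.9 in PBS replicates 1 and 2. Tissue bins that were not dense averaged 1.56 to 1.91 Rrm2 molecules over the 4 sections. By this gene the rich bins, like the other dense bins, were proliferating tissue. No gene of the fixed lists for neurons, oligodendrocytes and astrocytes was measured, and no gene specific to GL261 cells. Rich bins held 1.21 times as many molecules of the 97 other genes per bin as other dense bins, a log2 ratio of 0.28 ± 0.052 (SD, n = 4 sections). That ratio was above 1 in 4 of 4 sections (exact sign-flip permutation test, p = 0.125, the smallest 4 sections can give). Rich bins also lay 0.28 ± 0.17 bins (SD, n = 4) deeper from the edge of the dense tissue, in 4 of 4 sections (exact sign-flip permutation test, p = 0.125). That p was 0.25 with a dense limit of 200 (0.149 bins) and with bins of 180 pixels (0.184 bins). The limit of 400 is a raw count, which bins with more detected molecules could meet more easily. Both differences may thus follow in part from the rule, and these tests cannot separate that part.

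Rich bins formed patches rather than single bins in the sections that held most of them. The bins fell into 20 and 37 patches in anti-PD1 replicates 1 and 2 and into 38 and 12 in PBS replicates 1 and 2. The largest patch held 208 and 18 bins in the anti-PD1 sections, and 19 and 538 in the PBS sections. Among the dense neighbours of a rich bin, 62.3% and 33.2% were rich in the anti-PD1 sections and 37.3% and 72.0% in the PBS sections, against 32.8%, 7.57%, 16.03% and 42.7% for the neighbours of other dense bins. The section, not the bin, was the replicate in each test below.

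To find which genes went with Cxcl10, molecules were summed over the rich bins and over the other dense bins of each section and given as CPM, the molecules of a gene per 1e6 molecules of the 97 other genes. Of 95 genes tested, 33 (34.7%) took a higher share in the rich bins and 25 (26.3%) a lower share, at an adjusted p under 0.05 (limma, section as block, Benjamini-Hochberg). The median log2 difference over the 95 genes was 0.23. A section sum cannot tell more cells of a type from more RNA per cell. CPM is a share, and it weighs on the lower genes in particular: per bin, 60 genes were higher and 2 were lower, with a median log2 difference of 0.50. With median-of-ratios scaling 18 were higher and 25 lower. The genes past the threshold in the same direction under all 3 scalings numbered 18 higher and 2 lower. Of the genes named below as higher, Ccl5, Il6, Il12a, Cd28, Fasl, Klrb1c, Klrc1, Irf8, Batf3, Itgax, Ptprc, Msr1 and Tgfbi did not pass with median-of-ratios scaling. In the 4 fits that each left out 1 section, 36 of the 58 genes passed every time (21 higher and 15 lower). Of the genes named below as passing, Il6, Il12a, Ccl5, Ccl22, Cd28, Fasl, Klrb1c, Klrc1, Msr1, Tgfbi, S1pr1, Lag3, Adgre1, Mrc1, Spp1 and Tmem119 did not.

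Interferon-gamma RNA, Ifng, had the largest difference of the genes tested. In the rich bins, Ifng stood at 606 and 415 CPM in anti-PD1 replicates 1 and 2 and at 217 and 395 CPM in PBS replicates 1 and 2, against 95.1, 92.5, 99.7 and 159 CPM in the other dense bins. Every rich sum exceeded every other dense sum, and the ratio was 3.5 (log2 difference 1.81 ± 0.26 SE, adjusted p = 0.0031). Ifng, which T cells and NK cells make, was concentrated in few bins. At least 1 Ifng molecule was found in 44.5% and 31.1% of rich bins in anti-PD1 replicates 1 and 2 and in 29.9% and 41.6% in PBS replicates 1 and 2, against 20.7%, 16.1%, 14.7% and 22.6% of other dense bins. The rich bins held 1397 and 220 Ifng molecules in the anti-PD1 sections and 125 and 1234 in the PBS sections. The 10% of rich bins with most Ifng carried 82.7% and 80.5% of these molecules in the anti-PD1 sections and 73.6% and 66.5% in the PBS sections. Single bins reached 179 molecules in anti-PD1 replicate 1 and 59 in PBS replicate 2. The type I interferon gene Ifnb1 stood above background (the 90th percentile of the 28 targets named FP in the same sum) in 1 of 8 sums and Ifna2 in 0 of 8, so neither could be read.

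Of the 3 measured interferon-induced genes, Cxcl9 and Cd274 rose and Ly6a did not pass (log2 difference 0.23 ± 0.084 SE, adjusted p = 0.0536), though Ly6a passed without anti-PD1 replicate 2 (adjusted p = 0.0299). Cxcl9 encodes the other measured ligand of CXCR3. The rich bins held Cxcl9 at 6149 and 3058 CPM (anti-PD1 replicates 1 and 2) and at 2328 and 4191 CPM (PBS replicates 1 and 2), and the other dense bins at 1965, 1033, 1080 and 2071 CPM in that order. No other dense sum reached the lowest rich sum, and the ratio was 2.52 (log2 difference 1.33 ± 0.12 SE, adjusted p = 0.000715). Cd274 was at 25871 and 29754 CPM in the rich bins of anti-PD1 replicates 1 and 2 and at 23763 and 19927 CPM in those of PBS replicates 1 and 2, against 17008, 10560, 12425 and 11914 CPM in the other dense bins of the same sections. Again the 2 kinds of bins did not overlap, at a ratio of 1.92 (log2 difference 0.94 ± 0.14 SE, adjusted p = 0.0032).

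The shares of Cxcl9 and Cd274 followed Cxcl10 through the dense bins below the limit too. In bins with 0 to 49 Cxcl10 molecules, Cxcl9 stood at 583 and 524 CPM in anti-PD1 replicates 1 and 2 and at 546 and 1014 CPM in PBS replicates 1 and 2. It reached 2588 and 2327 CPM, and 1946 and 2555 CPM, in bins with at least 200 and under 400 molecules. In bins with 800 or more it was 8006, 4292, 2281 and 4792 CPM in the same order. Cd274 climbed through every class in all 4 sections, to 29940 and 40015 CPM in the anti-PD1 sections and 28483 and 21726 CPM in the PBS sections at 800 or more. Ifng stayed between 48.1 and 258 CPM in the classes under 400 and reached 821, 627, 281 and 483 CPM at 800 or more. Across the dense bins of a section, Spearman's rho between Cxcl10 molecules and the share of Cd274 was 0.50 and 0.63 in anti-PD1 replicates 1 and 2 (827 and 1090 bins) and 0.57 and 0.49 in PBS replicates 1 and 2 (714 and 965 bins). For the share of Cxcl9, rho was 0.58, 0.40, 0.45 and 0.39. Bins of a section share its staining and depth, and Cxcl10 also went with the number of molecules of the 97 other genes in a bin (rho 0.36, 0.32, 0.30 and 0.36).

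**Figure D2:**
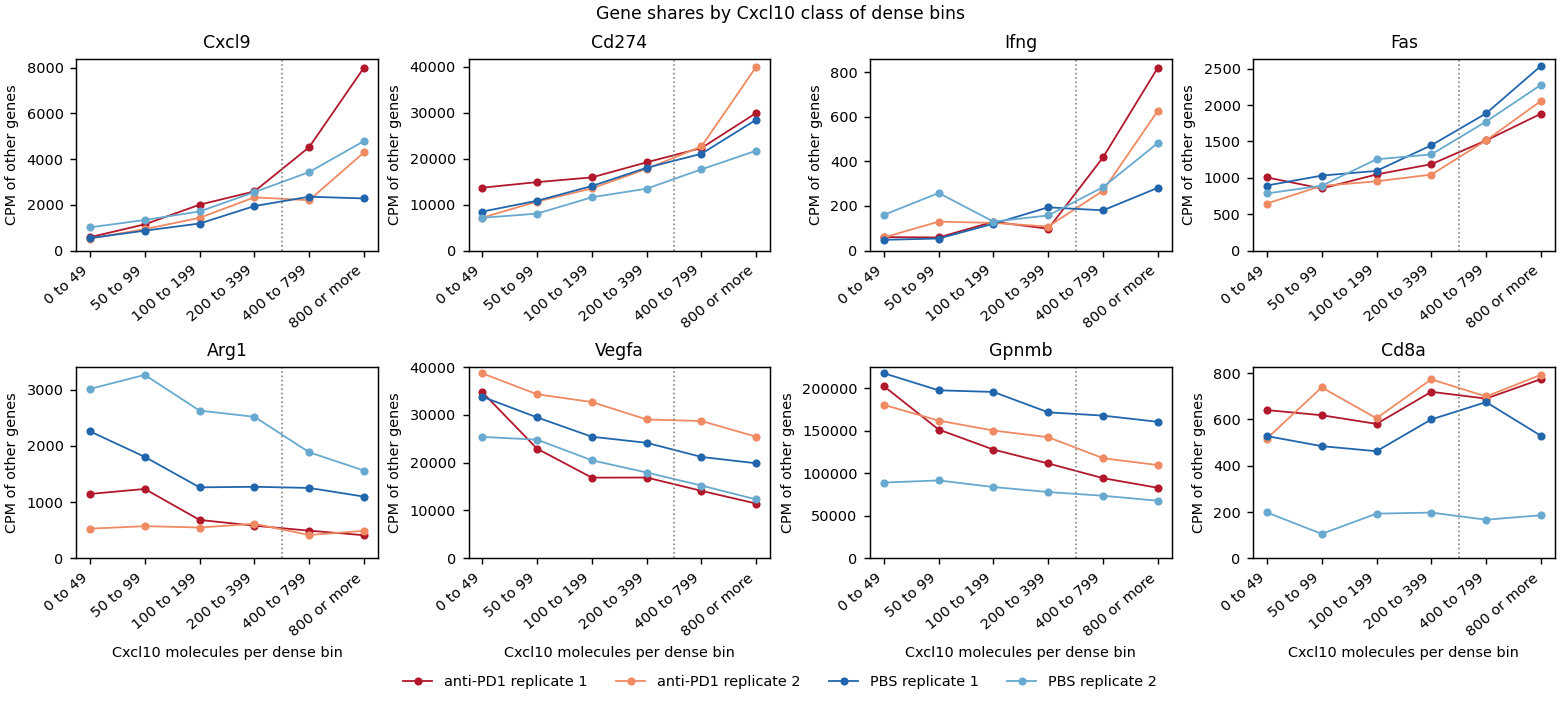
CPM of 8 genes (y axes) in dense bins grouped by their Cxcl10 molecules (x axes), with 1 line per section and the limit of 400 molecules as a dotted line. Cd274 climbed from class to class in all 4 sections, Vegfa was lower at 800 or more than at 0 to 49 in all 4, and Cd8a showed no common slope.

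The choice of 400 molecules is shown by the bins on its 2 sides, as a description. Bins with 400 to 449 Cxcl10 molecules numbered 35 and 16 in anti-PD1 replicates 1 and 2 and 22 and 41 in PBS replicates 1 and 2, and those with 350 or more but under 400 numbered 48, 16, 21 and 53. Their Cd274 share was 21661, 22648, 17365 and 15808 CPM inside the limit, against 22646, 20038, 17561 and 14392 CPM outside it. Cxcl9 was 2652, 1206, 1999 and 1915 CPM inside, against 2164, 1973, 3518 and 3303 CPM outside. For Ifng the values were 509, 507, 86.0 and 229 CPM inside, against 134, 182, 126 and 324 CPM outside.

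Of the 5 measured chemokine ligands, 4 rose (Cxcl9, Ccl3, Ccl5 and Ccl22), against 34.7% of all tested genes, and Ccl4 just missed the threshold (log2 difference 0.53 ± 0.19 SE, adjusted p = 0.0501). Ccl3, a chemokine of macrophages and T cells, was higher in the rich bins of all 4 sections (log2 difference 0.47 ± 0.075 SE, adjusted p = 0.00357). Ccl22, which dendritic cells and macrophages make, was higher in 3 of 4 sections (log2 difference 0.97 ± 0.28 SE, adjusted p = 0.0243). It stood above that FP background in 5 of 8 sums, and not in either sum of PBS replicate 2 or in the other dense bins of anti-PD1 replicate 2. Of 8 measured genes for TLR signalling and NF-kB inflammation, 4 rose, a share not far from the 34.7% over all tested genes. Among them were Tnf and Il1b, which encodes interleukin-1 beta. In the rich bins, Il1b stood at 3299 and 1809 CPM in anti-PD1 replicates 1 and 2 and at 1552 and 2686 CPM in PBS replicates 1 and 2, against 1744, 1148, 970.3 and 1721 CPM in the other dense bins. In each section the rich bins were the higher, though the ranges overlapped across sections (log2 difference 0.72 ± 0.069 SE, adjusted p = 0.000715). Tnf was higher in 4 of 4 sections as well (log2 difference 0.50 ± 0.088 SE, adjusted p = 0.00446). Il6 also passed, but it lay at that FP background in 8 of 8 sums, and Il12a did so in 5 of 8.

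Of 9 measured genes of cytotoxic and NK cells 6 rose (Ifng, Prf1, Nkg7, Fasl, Klrb1c and Klrc1), against 34.7% of all tested genes. Of 10 measured T cell genes 5 rose, among them Cd4, Cd28, Il2ra and Ctla4, a share not far from that 34.7%. Cd3d, Cd8a, Foxp3, Icos and Ikzf2 of the T cell list did not pass. Fasl, Klrb1c, Klrc1 and Cd28 stood at 0.19, 0.16, 0.26 and 0.08 with median-of-ratios scaling and did not pass there. At least 4 bins inside the dense edge, where PBS replicate 1 had 4 rich bins, Prf1 (-0.24), Fasl (-1.48), Klrb1c (-1.40) and Klrc1 (-1.48) had the other sign. The rich bins held Prf1 at 137 and 345 CPM (anti-PD1 replicates 1 and 2) and at 593 and 209 CPM (PBS replicates 1 and 2), and the other dense bins at 86, 126, 193 and 126 CPM in that order. Prf1 encodes perforin, the pore-forming protein of killer cells. The Prf1 sums overlapped between the 2 kinds of bins across sections, with the rich bins higher in each section (log2 difference 1.11 ± 0.19 SE, adjusted p = 0.00394). Nkg7 was at 1273 and 990.4 CPM in the rich bins of anti-PD1 replicates 1 and 2 and at 1025 and 1011 CPM in those of PBS replicates 1 and 2, against 846, 634, 716 and 737 CPM in the other dense bins of the same sections. Nkg7, a granule protein gene of NK cells and cytotoxic T cells, did not overlap between the 2 kinds of bins (log2 difference 0.55 ± 0.065 SE, adjusted p = 0.00144). The result for the defining gene of CD8 T cells depended on the scaling. In the rich bins, Cd8a stood at 729 and 738 CPM in anti-PD1 replicates 1 and 2 and at 622 and 178 CPM in PBS replicates 1 and 2, against 659, 616, 521 and 188 CPM in the other dense bins. Cd8a was higher in 3 of 4 sections and did not pass (log2 difference 0.15 ± 0.087 SE, adjusted p = 0.176), and its difference was -0.05 with median-of-ratios scaling. Per bin, where 60 of 95 genes were higher, Cd8a was higher and passed (0.42, adjusted p = 0.00279). With other dense bins weighted by their molecules of the 97 other genes, Cd8a passed as well (0.22, adjusted p = 0.0405). Cd3d, part of the T cell receptor complex, did not pass either (log2 difference 0.43 ± 0.19 SE, adjusted p = 0.0832), and it lay at that FP background in 5 of 8 sums. Gzmb, which encodes granzyme B, did not pass over the 4 sections (log2 difference 0.33 ± 0.23 SE, adjusted p = 0.233) and passed without PBS replicate 2 (adjusted p = 0.00676).

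The rich bins held Il2ra at 1968 and 904 CPM (anti-PD1 replicates 1 and 2) and at 1296 and 478 CPM (PBS replicates 1 and 2), and the other dense bins at 1002, 483, 656 and 389.6 CPM in that order. Il2ra encodes a chain of the interleukin-2 receptor that activated and regulatory T cells carry. Rich bins were higher in 4 of 4 sections, with overlap across sections (log2 difference 0.79 ± 0.13 SE, adjusted p = 0.00394). Ctla4, an inhibitory receptor, followed (log2 difference 0.76 ± 0.13 SE, adjusted p = 0.00394), as did Cd4 (log2 difference 0.64 ± 0.11 SE, adjusted p = 0.00394), which some myeloid cells also express. Foxp3, which defines regulatory T cells, was higher in 3 of 4 sections and did not pass (log2 difference 0.53 ± 0.24 SE, adjusted p = 0.0991), and it passed without PBS replicate 2 (adjusted p = 0.00354). Ikzf2 and Icos, also of the T cell list, did not pass (log2 differences -0.0015 and 0.12, adjusted p = 0.979 and 0.394). Of 3 measured chemokine receptors 1 rose, 1 fell and 1 did not pass. Ccr7, the receptor that guides naive T cells and mature dendritic cells towards lymph nodes, rose in 4 of 4 sections (log2 difference 0.88 ± 0.076 SE, adjusted p = 0.000715). S1pr1 fell (log2 difference -0.24), also with median-of-ratios scaling (-0.43, adjusted p = 0.00733), while per bin it was at 0.04 and did not pass. Ccr2 did not pass (log2 difference 0.16).

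The checkpoint genes did not move as 1 block. Of 8 measured members, Cd274, Pdcd1, Pdcd1lg2 and Ctla4 rose, Lag3 fell, and Havcr2, Tox and Tnfrsf9 did not pass, against 34.7% higher and 26.3% lower over all tested genes. Pdcd1 was at 464 and 392 CPM in the rich bins of anti-PD1 replicates 1 and 2 and at 626 and 433 CPM in those of PBS replicates 1 and 2, against 310.4, 277, 416 and 295 CPM in the other dense bins of the same sections. Pdcd1 encodes PD-1, the target of the antibody. Rich bins were higher in each section (log2 difference 0.55 ± 0.073 SE, adjusted p = 0.00206). Pdcd1lg2, the gene of its second ligand, rose too (log2 difference 0.70 ± 0.13 SE, adjusted p = 0.00549). Lag3, an inhibitory receptor of T cells that microglia also express, was lower in 4 of 4 sections (log2 difference -0.23 ± 0.082 SE, adjusted p = 0.0472). That call was lost without PBS replicate 1, PBS replicate 2 or anti-PD1 replicate 1 (adjusted p = 0.201, 0.0934 and 0.104), and per bin the difference was 0.04.

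Fas and Cd40, 2 receptors of the TNF receptor family, rose in 4 of 4 sections. Tnfrsf9, of the same family, did not pass (log2 difference 0.24, and 0.05 with median-of-ratios scaling), though it passed per bin (0.52). In the rich bins, Fas stood at 1685 and 1735 CPM in anti-PD1 replicates 1 and 2 and at 2123 and 2054 CPM in PBS replicates 1 and 2, against 1080, 809.8, 1095 and 1221 CPM in the other dense bins. Fas, the death receptor bound by Fas ligand, had a ratio of 1.82 (log2 difference 0.86 ± 0.088 SE, adjusted p = 0.000876). The rich bins held Cd40 at 1463 and 1556 CPM (anti-PD1 replicates 1 and 2) and at 1795 and 1230 CPM (PBS replicates 1 and 2), and the other dense bins at 900.0, 738, 1068 and 696 CPM in that order. Cd40, through which T cells activate dendritic cells and macrophages, had a ratio of 1.79 (log2 difference 0.84 ± 0.08 SE, adjusted p = 0.000715). Of 9 measured genes of dendritic cells and antigen presentation, Cd40, Irf8, Batf3 and Itgax rose, a share not far from the 34.7% over all tested genes. Irf8, a transcription factor of myeloid and dendritic cells that interferon-gamma induces, was higher in 4 of 4 sections (log2 difference 0.39 ± 0.077 SE, adjusted p = 0.00674), and so was Batf3, a factor of cross-presenting dendritic cells (log2 difference 0.32 ± 0.069 SE, adjusted p = 0.00855). With median-of-ratios scaling Irf8 (0.19, adjusted p = 0.0597), Batf3 (0.13, adjusted p = 0.196) and Itgax (0.04, adjusted p = 0.690) did not pass. Flt3 and Xcr1, which mark dendritic cells, lay at that FP background in 8 of 8 sums. Cd74, the MHC class II chaperone, did not pass (log2 difference 0.06 ± 0.046 SE, adjusted p = 0.285), and its difference was -0.13 with median-of-ratios scaling. Stat3 did not pass (log2 difference 0.10 ± 0.044 SE, adjusted p = 0.082), and its difference was -0.09 with that scaling. Per bin, where 60 of 95 genes were higher, Cd74 (0.34, adjusted p = 0.000641) and Stat3 (0.38, adjusted p = 0.000466) were higher and passed.

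Of 6 measured suppressive factors, Arg1, Vegfa and Mrc1 fell, against 26.3% of all tested genes, and the median over the 6 was -0.09. Il10 (log2 difference 0.31), Nos2 (0.27) and Tgfb1 (0.02) did not pass. Arg1 was at 454 and 445 CPM in the rich bins of anti-PD1 replicates 1 and 2 and at 1195 and 1705 CPM in those of PBS replicates 1 and 2, against 775, 553, 1711 and 2657 CPM in the other dense bins of the same sections. Arg1 encodes arginase, which breaks down arginine. It was lower in the rich bins of all 4 sections, while the sections differed among themselves (log2 difference -0.56 ± 0.088 SE, adjusted p = 0.00357). In the rich bins, Vegfa stood at 12867 and 27364 CPM in anti-PD1 replicates 1 and 2 and at 20712 and 13599 CPM in PBS replicates 1 and 2, against 20159, 35288, 28781 and 19915 CPM in the other dense bins. Vegfa, the vascular growth factor that hypoxia induces, was lower in each section (log2 difference -0.51 ± 0.058 SE, adjusted p = 0.00136). Arg1 and Vegfa were the genes that also fell per bin, by 0.28 and 0.23 on the log2 scale. The rest of the 25 lower genes did not pass per bin, and 8 of them had the other sign there.

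Gpnmb, a glycoprotein gene of phagocytes and glioma cells, made up a large part of all molecules. The rich bins held Gpnmb at 89047 and 114513 CPM (anti-PD1 replicates 1 and 2) and at 165290 and 70367 CPM (PBS replicates 1 and 2), and the other dense bins at 133785, 165767, 198175 and 81901 CPM in that order. It was lower in each rich sum than in the other dense sum of its section (log2 difference -0.40 ± 0.076 SE, adjusted p = 0.00549), and its difference per bin was -0.12. Of the 4 measured genes of lipid-handling and activated phagocytes, Gpnmb, Spp1 and Fabp5 fell and Itgax rose. Over all tested genes, 26.3% were lower and 34.7% higher. Spp1, which encodes osteopontin, lost its call without anti-PD1 replicate 2 (adjusted p = 0.0814). Both measured microglial genes fell, Tmem119 (log2 difference -0.48 ± 0.13 SE, adjusted p = 0.0201) and Csf1r (log2 difference -0.25 ± 0.047 SE, adjusted p = 0.00549), and Tmem119 did not pass without anti-PD1 replicate 2 (adjusted p = 0.0522). Among 8 measured genes of monocytes and macrophages, Cd68 (log2 difference -0.31 ± 0.052 SE, adjusted p = 0.00394), Adgre1 and Mrc1 fell, Msr1 and Tgfbi rose and 3 did not pass. The part of this list that fell was not far from the 26.3% over all tested genes. Csf1r, Adgre1 and Mrc1 were lower as shares, while per bin their log2 differences were 0.03, 0.08 and 0.07, and none of the 3 passed. Of 3 measured pan-leukocyte genes 1 rose, 1 fell and 1 did not pass. Ptprc, which encodes CD45, rose (log2 difference 0.32 ± 0.069 SE, adjusted p = 0.00857), and with median-of-ratios scaling it was at 0.13 and did not pass (adjusted p = 0.175). Il16 fell (log2 difference -0.31), also with median-of-ratios scaling (-0.50, adjusted p = 0.00233), while per bin it was at -0.03 and did not pass. Csf2rb did not pass (log2 difference 0.20). Cells could not be assigned, and the part that changes in cell makeup had in these shares was not tested.

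Of 5 measured genes of the list for tumour, proliferation and hypoxia, Rrm2 and Vegfa fell and Ly6a, Stat3 and Cd47 did not pass, against 26.3% lower over all tested genes. Rrm2 was lower in 4 of 4 sections (log2 difference -0.29 ± 0.064 SE, adjusted p = 0.00878). Other single genes that fell in 4 of 4 sections, on none of the gene lists, included the DNA methyltransferase genes Dnmt1 (log2 difference -0.30 ± 0.051 SE, adjusted p = 0.00394), Dnmt3a (log2 difference -0.37 ± 0.051 SE, adjusted p = 0.00259) and Dnmt3b, and the telomerase gene Tert (log2 difference -0.34 ± 0.053 SE, adjusted p = 0.00357). Per bin their differences lay between -0.11 and -0.02 and none passed. The neutrophil gene Ly6g lay at that FP background in 8 of 8 sums.

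**Figure D3:**
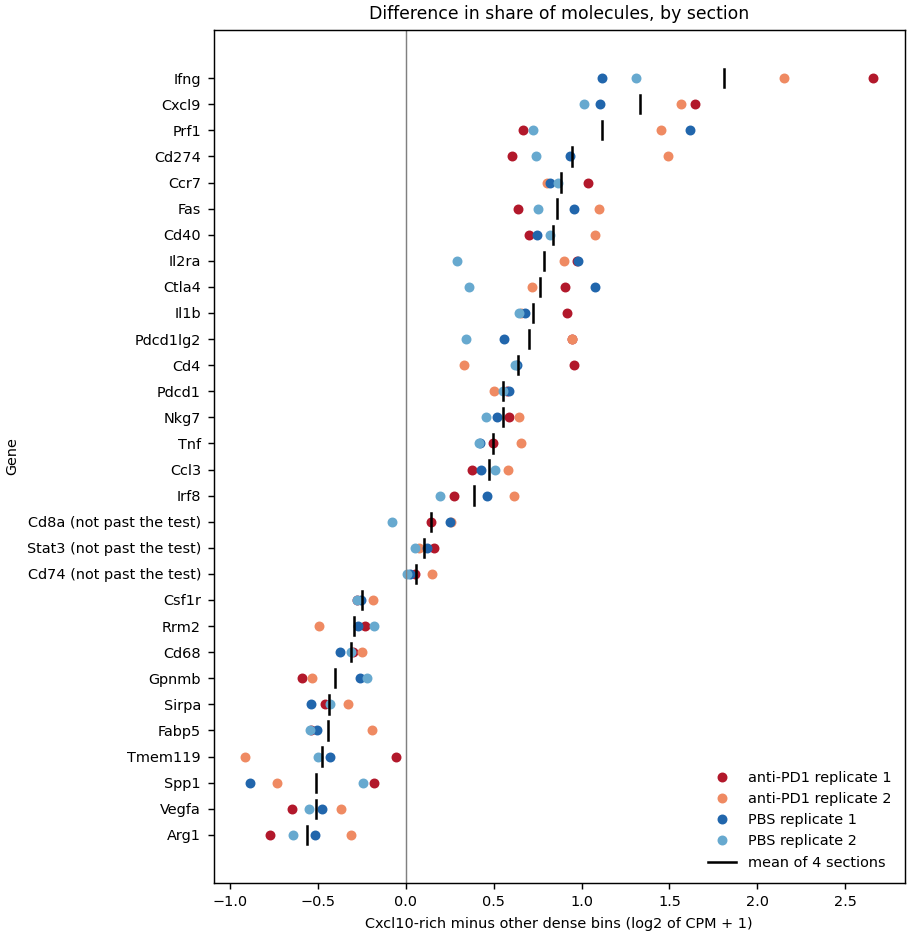
Difference between Cxcl10-rich and other dense bins (x axis, log2 of CPM plus 1) for 30 genes (y axis), with 1 point per section and a black bar at the mean of 4 sections. Ifng ran between 1.12 and 2.66 and Cxcl9 between 1.02 and 1.65, while Arg1 and Vegfa lay below 0 in each section.

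Within the rich bins, Cxcl10 was placed unevenly, and this gave a finer view of which genes lay beside it. Each rich bin was divided into 36 squares of 60 pixels, and the 9 squares with most Cxcl10 were set against the other 27 of the same bin. The 9 squares held 55.9% and 60.1% of the Cxcl10 of the rich bins in anti-PD1 replicates 1 and 2 and 64.9% and 56.3% in PBS replicates 1 and 2. Their share of the molecules of the 97 other genes was 24.5%, 26.5%, 26.9% and 25.05%. Of 93 genes tested, 14 (15.1%) took a higher share in the Cxcl10-high squares and 24 (25.8%) a lower share (limma, section as block, adjusted p under 0.05). As molecules per square 14 genes were higher and 12 lower, and with median-of-ratios scaling 15 were higher and 12 lower.

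Fas, Cd274 and Cxcl9 were the higher genes with the largest differences at this scale. Fas was at 2894 and 3125 CPM in the Cxcl10-high squares of anti-PD1 replicates 1 and 2 and at 3087 and 3350 CPM in those of PBS replicates 1 and 2, against 1294, 1234, 1769 and 1621 CPM in the other squares of the same sections. The ratio was 2.12 (log2 difference 1.09 ± 0.087 SE, adjusted p = 1.62e-06). In the Cxcl10-high squares, Cd274 stood at 36322 and 44671 CPM in anti-PD1 replicates 1 and 2 and at 36116 and 27627 CPM in PBS replicates 1 and 2, against 22489, 24376, 19215 and 17354 CPM in the other squares. Here the ratio was 1.73 (log2 difference 0.79 ± 0.045 SE, adjusted p = 8.26e-08). The Cxcl10-high squares held Cxcl9 at 8669 and 4827 CPM (anti-PD1 replicates 1 and 2) and at 3306 and 5143 CPM (PBS replicates 1 and 2), and the other squares at 5333, 2420, 1968 and 3873 CPM in that order. Cxcl9 had a ratio of 1.64 (log2 difference 0.71 ± 0.082 SE, adjusted p = 3.15e-05). Cd40 (log2 difference 0.34 ± 0.078 SE, adjusted p = 0.00399) and Irf8 (log2 difference 0.32 ± 0.038 SE, adjusted p = 3.39e-05) were also higher in the Cxcl10-high squares of all 4 sections. So was Csf1, the gene of a growth factor for macrophages (log2 difference 0.38 ± 0.043 SE, adjusted p = 2.92e-05).

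Ifng and genes of killer cells either did not pass at this scale or took a lower share. Ifng was at 794 and 648 CPM in the Cxcl10-high squares of anti-PD1 replicates 1 and 2 and at 213 and 370.5 CPM in those of PBS replicates 1 and 2, against 545, 331, 219 and 403 CPM in the other squares of the same sections. Ifng was higher in the Cxcl10-high squares of 2 of 4 sections and did not pass (log2 difference 0.34 ± 0.17 SE, adjusted p = 0.136). Prf1 did not pass over the 4 sections (log2 difference 0.38 ± 0.18 SE, adjusted p = 0.113) and passed without anti-PD1 replicate 2 (adjusted p = 0.0123). In the Cxcl10-high squares, Cd8a stood at 615 and 733 CPM in anti-PD1 replicates 1 and 2 and at 381 and 120.1 CPM in PBS replicates 1 and 2, against 766, 739, 711 and 197 CPM in the other squares. Cd8a took a lower share in the Cxcl10-high squares (log2 difference -0.48 ± 0.15 SE, adjusted p = 0.0196), a call lost without PBS replicate 1 or PBS replicate 2 (adjusted p = 0.119 and 0.128) and with molecules per square. Lag3 was lower in 4 of 4 sections (log2 difference -0.56 ± 0.13 SE, adjusted p = 0.00408).

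Of the 8 measured genes of monocytes and macrophages, 6 took a lower share in the Cxcl10-high squares (Adgre1, Cd68, Tgfbi, Mrc1, Msr1 and Csf2rb), Cd14 a higher one (log2 difference 0.39 ± 0.09 SE, adjusted p = 0.00408) and Ccr2 did not pass. Over all 93 genes tested, 25.8% took a lower share and 15.1% a higher one. The 24 lower genes became 12 both as molecules per square and with median-of-ratios scaling. Spp1, of the activated phagocyte list, did not pass either (log2 difference 0.0042, adjusted p = 0.968). The Cxcl10-high squares held Csf1r at 6191 and 3467 CPM (anti-PD1 replicates 1 and 2) and at 5941 and 3605 CPM (PBS replicates 1 and 2), and the other squares at 7909, 5292, 7735 and 4344 CPM in that order. Csf1r, the receptor for the product of Csf1, was lower in each section (log2 difference -0.40 ± 0.063 SE, adjusted p = 0.0003). Tmem119 (log2 difference -0.41 ± 0.047 SE, adjusted p = 3.15e-05), Adgre1 (log2 difference -0.48 ± 0.12 SE, adjusted p = 0.00703), Cd68 (log2 difference -0.32 ± 0.069 SE, adjusted p = 0.00291) and Gpnmb (log2 difference -0.31 ± 0.026 SE, adjusted p = 1.85e-06) were lower too, and Adgre1 did not pass with median-of-ratios scaling. Ptprc, Itgax, Tgfbi and Msr1 had taken higher shares in rich bins against other dense bins, where with median-of-ratios scaling they were at 0.13, 0.04, 0.03 and 0.16 and did not pass. In the Cxcl10-high squares inside rich bins they were lower (log2 difference -0.34 ± 0.06 SE, adjusted p = 0.000715 for Ptprc, log2 difference -0.39 ± 0.062 SE, adjusted p = 0.000376 for Itgax). Both scales compare shares, and a square of 60 pixels was not matched to a cell.

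**Figure D4:**
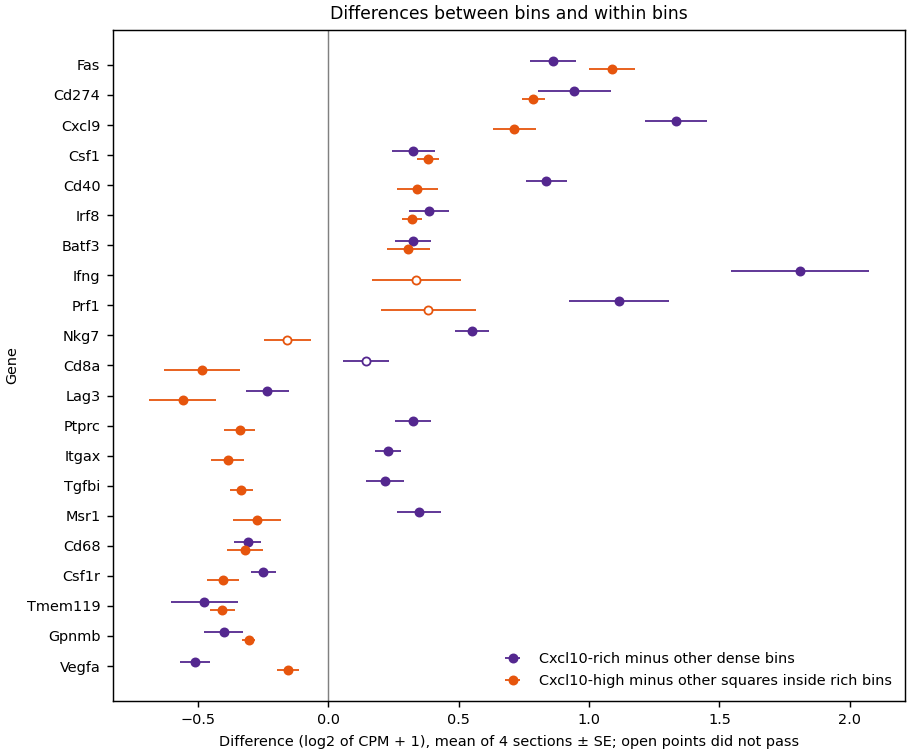
Mean difference in log2 of CPM plus 1 (x axis) with its SE for 21 genes (y axis), between rich and other dense bins (purple) and between Cxcl10-high and other squares inside rich bins (orange), over 4 sections. Filled points passed an adjusted p of 0.05. Fas, Cd274 and Cxcl9 were higher in both, and Ptprc, Itgax, Tgfbi and Msr1 took higher shares in rich bins, which did not pass with median-of-ratios scaling, and lower shares in Cxcl10-high squares.

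The rich bins of the treatment groups were then compared. Of 95 genes, 0 (0.0%) passed an adjusted p of 0.05 between anti-PD1 and PBS (limma), and 5 had an unadjusted p under 0.05. In rich bins, Arg1 was at 454 and 445 CPM in anti-PD1 replicates 1 and 2, against 1195 and 1705 CPM in PBS replicates 1 and 2. Arg1 was 1 of those 5 genes, with a log2 difference of -1.66 ± 0.52 (SE, adjusted p = 0.385). Spp1 was at 1214 and 1107 CPM with anti-PD1, against 5044 and 2220 CPM with PBS (log2 difference -1.53 ± 0.51 SE, adjusted p = 0.385). Without PBS replicate 2, where the lone PBS section was taken to vary like the anti-PD1 ones, 2 genes passed, Spp1 (adjusted p = 0.0284) and Tmem119 (adjusted p = 0.00822). Cxcl9 (0.47 ± 0.49), Cd274 (0.35 ± 0.36) and Ifng (0.77 ± 0.64) had log2 differences between anti-PD1 and PBS of about the size of their SE.

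The difference between rich and other dense bins was itself compared between treatments. Of 95 genes, 0 passed (limma) and 10 had an unadjusted p under 0.05. The rich minus other difference of Ifng was 2.66 and 2.15 in anti-PD1 replicates 1 and 2, against 1.12 and 1.31 in PBS replicates 1 and 2. Ifng was 1 of those 10 genes, and the difference between the treatments was 1.19 ± 0.25 on the log2 scale (SE, adjusted p = 0.340). For Cxcl9 the rich minus other differences were 1.65 and 1.57 with anti-PD1, against 1.11 and 1.02 with PBS (difference 0.54 ± 0.23 SE, adjusted p = 0.501). Without PBS replicate 1, 5 genes passed this test.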

How the data were processed

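The deposited file of each section lists every called molecule with its x, y and z position in pixels and its target, per the labels from the Resolve smFISH assay. Counts were made here from these positions. The submitters' processing notes name Seurat 4.2.0 with no role; spot calling and pixel size are not given by the labels. The 28 targets whose names start with FP were taken for false-positive codes and made up 0.106% to 0.152% of 4195896 to 6995401 molecules per section.

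Molecules were tallied in squares of 360 pixels with at least 20 molecules. Sums per bin class and section became CPM of the 97 genes outside the rule, then log2(CPM + 1), and differences of low genes are understated on that scale. Genes averaging 10 or more molecules per sum were fitted with limma 3.58.1 in R 4.3.3 (lmFit, eBayes with trend, section as block). Tests were two-sided with Benjamini-Hochberg adjustment at 0.05. Shares and distances used exact permutation over sections.

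The members, gene lists and named genes were chosen with earlier results of these data known. Named genes were up to 12 per direction with the largest change that moved the same way in 4 of 4 sections, a set of immune and tumour genes, and the 3 most abundant measured members of each list; the others, such as Ccl22, Pdcd1, Klrb1c and Lag3, were chosen after their values were seen. Alternatives were other scalings, limits, bin sizes, fits and sections left out. Some measured items are not reported here.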

Additional observations from a re-analysis of the deposited data

How the results depend on the processing

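Of the comparisons of single named genes under the alternatives, 1666 kept direction and side of the threshold, 279 kept direction and no longer passed, 49 came to pass and 28 took the other sign; the cause was not tested. The count of genes that differed between rich and other dense bins was 58, and 39 to 56 without 1 section. It was 35 with bins of 720 pixels, 23 against other bins with no rich neighbour (an alternative chosen after seeing the data), 38 in the PBS sections alone and 1 at least 4 bins inside the dense edge, where PBS replicate 1 had 4 rich bins. The split was 60 higher and 2 lower per bin, and 18 and 25 both with median-of-ratios scaling and with the 3 rule genes in the CPM total. It was 45 and 18 when the same number of dense bins per section was chosen by Cxcl10's share of a bin's molecules.

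Per bin, S1pr1 (0.043), Lag3 (0.045), Adgre1 (0.076), Csf1r (0.030) and Mrc1 (0.071) took the other sign. So did Cd8a (-0.046), Stat3 (-0.089) and Cd74 (-0.13) with median-of-ratios scaling, and Cd8a (-0.014), Stat3 (-0.058) and Cd74 (-0.10) with the rule genes in the total. Cd8a was also at -0.091 with bins of 720 pixels and at -0.079 against bins with no rich neighbour. At least 4 bins inside the edge, Ccl22 (-1.38), Ccl4 (-1.49), Fasl (-1.48), Prf1 (-0.24), Klrb1c (-1.40), Klrc1 (-1.48), Gzmb (-2.79), Cd8a (-0.97), Cd3d (-1.11), Pdcd1 (-1.33), Lag3 (0.021), Ptprc (-0.069) and Cd74 (-0.076) took the other sign.

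Between anti-PD1 and PBS in rich bins, 0 to 2 genes passed without 1 section, and the log2 difference of Cxcl9 ran between -0.031 without anti-PD1 replicate 1 and 0.98 without anti-PD1 replicate 2. For the difference of rich and other bins between treatments it was 0 to 5 genes, and Cd274 ran between -0.23 without anti-PD1 replicate 2 and 0.66 without anti-PD1 replicate 1. The labels' numbers 1 and 2 were shared by both treatments, and the labels do not say what the numbers stand for. Same-numbered sections correlated at -0.015 in level and 0.14 in difference over 95 genes. With 2 pairs these values cannot tell whether same-numbered sections shared a batch. With the replicate block 0 genes passed between treatments in rich bins, and 1 gene passed for the difference. The difference in the share of rich bins ran between -30.4 and 8.65 points without 1 section, with 6.81 points without anti-PD1 replicate 2. In the small squares 31 to 44 genes passed without 1 section, against 38 in all 4 (24 lower); 12 were lower both as molecules per square and with median-of-ratios scaling. The distance from the edge was 0.478 bins with a dense limit of 50, 0.149 with 200 and 0.184 with bins of 180 pixels (exact sign-flip permutation test, p = 0.25 for these last 2), and 0.21 to 0.35 without 1 section. The log2 ratio of other molecules per bin was 0.40 with a dense limit of 50, 0.18 with 200 and 0.20 with bins of 180 pixels, and 0.25 to 0.29 without 1 section. Few molecules limit Ifng, Ccl22, Cd3d, Il6 and Il12a.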
